A study of Mus musculus with 8 samples.

Results

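The effect of YAP knockdown on DNA methylation in embryonic stem cells (ESCs) that had not been induced to differentiate was examined in the 47315 windows of the authors' deposited table of YAP KD against CTR KD at T0, of 54235 windows listed in any of the series' 4 comparison tables. E14Tg2a mouse ESCs, a feeder-free line kept in serum with leukemia inhibitory factor, were transiently transfected with negative control siRNAs (CTR KD) or with siRNAs against YAP (YAP KD). Undifferentiated cells were taken at T0 (day 0), with 2 samples for each siRNA from independent experiments, and a further 2 samples for each siRNA were taken on day 4 of neuroectodermal differentiation (T4). The DNA was enriched by hybrid capture and sequenced after bisulphite treatment, which reads methylated and unmethylated cytosines apart. The knockdown cells were a transfected population and not a clone, so any cells that took up no siRNA were averaged with the rest. No RNA level was in these tables, so neither the loss of YAP nor the identity of the cells could be checked against marker genes.

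YAP is the co-activator held in the cytoplasm by the Hippo kinases, and in the nucleus it acts through the TEAD transcription factors. In ESCs, cytosine methylation at CpG dinucleotides is written by Dnmt3a and Dnmt3b with the help of Dnmt3l, copied at replication by Dnmt1 with Uhrf1, and oxidised by the Tet enzymes. Imprinted genes carry such methylation on the allele of a single parent, and the zinc finger protein ZFP57 helps to keep it by binding the methylated hexamer TGCCGC.

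Each value below is the YAP KD minus CTR KD methylation in a window of 250 bp, in percentage points, as given in the authors' deposited table with a methylKit q-value. A window was called different where q was at or below 0.05 and the difference was over 10 points. The error printed as a derived SE was recovered from the table, as the absolute difference over the standard normal deviate that corresponds to its p-value. The tables held no value for a single sample and no read number, so the spread between the 2 experiments could not be seen, the depth is unknown, and the p-values compare these libraries.

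Few windows were called different in methylation between the YAP KD and CTR KD libraries, and most of those called were higher in YAP KD. Of the 47315 windows, 41 were called (0.0867%), of which 32 were higher (0.0676% of all windows) and 9 lower (0.019%). Overlapping or touching calls of the same direction merged into 34 regions, 28 higher and 6 lower. The higher calls ran from 10.03 to 16.1 points and the lower calls from -10.1 to -15.0 points. At the edge of the call, Inpp5f at 10.03 points was the smallest difference inside and Impa2 at 9.82 points, with q = 0.000598, the largest outside. By q, Apol7a at 10.5 points (q = 0.0483) was the last inside, and Gm13875 at 10.3 points (q = 0.0607) the first outside. With the derived SEs doubled none of the 41 windows passed, and 30 of them had an unadjusted p under 0.05. At a q threshold of 0.01, 19 windows passed, 16 higher and 3 lower.

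The called windows at imprinted genes are shown first, because 8 of the 41 called windows belonged to genes of that list. The sequences are those of the mm9 reference (NCBIM37), plus strand, and capitals mark every CpG dinucleotide of the reference. Which of these were covered by enough reads is not given in the tables. The window of the paternally expressed, retrotransposon-derived gene Peg10 lay on chromosome 6 from 4697626 to 4697875, in an intron 444 bp past the nearest annotated start, and held 21 CpGs. The Gnas window, in the imprinted locus of the stimulatory G protein alpha subunit, lay on chromosome 2 from 174122876 to 174123125, in an intron 360 bp before the nearest start, and held 18 CpGs. The Inpp5f window, in an inositol phosphatase gene with an imprinted variant transcript, lay on chromosome 7 from 135831376 to 135831625, in an intron 440 bp past the nearest start, and held 18 CpGs. The Mcts2 window lay on chromosome 2 from 152512501 to 152512750, 259 bp before the start of this paternally expressed retrogene, which sits inside an intron of H13, and held 22 CpGs.
Peg10: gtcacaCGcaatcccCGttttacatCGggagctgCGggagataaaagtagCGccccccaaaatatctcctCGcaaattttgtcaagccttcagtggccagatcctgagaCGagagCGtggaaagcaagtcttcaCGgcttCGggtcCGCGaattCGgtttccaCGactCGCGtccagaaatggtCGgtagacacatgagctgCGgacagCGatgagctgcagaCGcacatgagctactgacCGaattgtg
Gnas: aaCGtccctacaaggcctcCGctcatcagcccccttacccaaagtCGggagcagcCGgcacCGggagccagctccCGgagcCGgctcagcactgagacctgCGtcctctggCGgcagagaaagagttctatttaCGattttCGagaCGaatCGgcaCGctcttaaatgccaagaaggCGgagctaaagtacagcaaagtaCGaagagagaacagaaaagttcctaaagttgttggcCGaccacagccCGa
Inpp5f: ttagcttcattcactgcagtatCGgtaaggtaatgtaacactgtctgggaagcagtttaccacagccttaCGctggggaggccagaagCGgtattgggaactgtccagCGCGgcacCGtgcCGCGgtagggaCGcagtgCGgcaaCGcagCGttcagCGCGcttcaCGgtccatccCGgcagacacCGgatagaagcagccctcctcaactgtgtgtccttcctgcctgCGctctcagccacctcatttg
Mcts2: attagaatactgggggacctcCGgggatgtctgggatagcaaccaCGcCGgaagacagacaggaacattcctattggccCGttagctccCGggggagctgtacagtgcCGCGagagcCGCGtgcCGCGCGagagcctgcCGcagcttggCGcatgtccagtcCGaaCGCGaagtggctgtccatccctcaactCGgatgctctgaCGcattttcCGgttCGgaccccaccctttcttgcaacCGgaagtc

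These windows moved in both directions. Methylation of the Peg10 window was 16.1 points higher in YAP KD (derived SE 2.79, q = 6.23e-05), the largest gain in the table among windows with q at or below 0.05. The Gnas window was 13.4 points higher (derived SE 3.42, q = 0.0322) and the Inpp5f window 10.03 points higher (derived SE 1.96, q = 0.000884). At Impact, a paternally expressed regulator of translation, 2 overlapping intron windows on chromosome 18 were 10.4 and 11.03 points higher (q = 0.000213 and 0.00924), and the window before them was 7.28 points higher without passing (q = 0.0578). At Mcts2 methylation was lower instead. Its 3 overlapping windows differed by -11.4, -12.04 and -10.1 points, and the middle window had the smallest q of any call (2.13e-07). Past the called windows the Mcts2 difference shrank to -6.06 and then -1.51 points (q = 0.201 and 0.798).

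Neighbouring windows overlap and so share reads, and their likeness is in part built in. At Peg10 it did not extend far. The next window, which overlaps the called window, was at 2.95 points, the one after it at -7.77 points (q = 0.648 and 0.0727), and the 7 Peg10 windows ran from -7.77 to 16.1 points. At Inpp5f the differences went from 10.03 to 7.11 to -0.52 points over 3 windows. At Gnas the 2 other measured windows within 3000 bp were at 2.28 and -2.69 points (q = 0.761 and 0.79). Over all regions, 29 uncalled windows overlapped a called region or lay within 250 bp of it, and 22 of them had its sign.

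**Figure D1:**
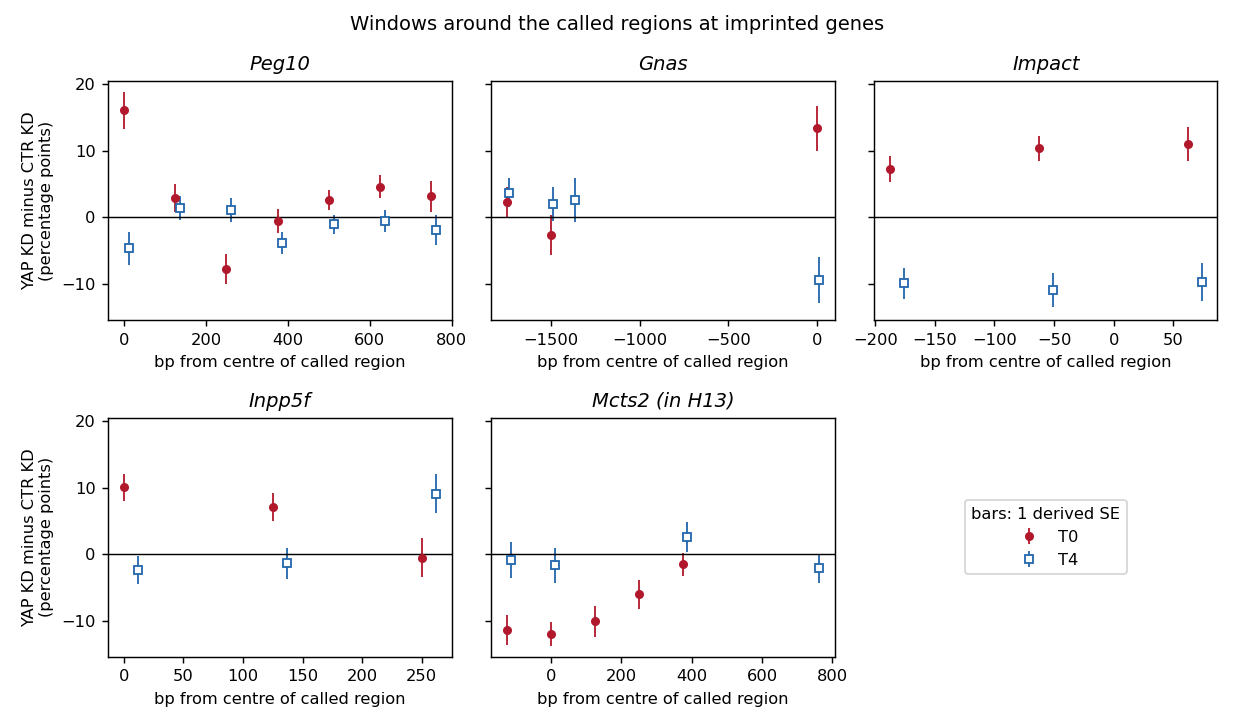
YAP KD minus CTR KD methylation (percentage points, y axis) of each window against its distance in bp from the centre of the called region (x axis) at 5 imprinted genes, at T0 (filled circles) and at T4 (open squares, drawn 12 bp to the right), with bars of 1 derived SE. At Impact all 3 windows were above 0 at T0 and below 0 at T4, while at Mcts2 the 5 T0 differences were all below 0, from -12.04 points at the centre to -1.51 points at the last window.

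The imprinted list is summarised next as a whole, with these 5 genes included, and its remaining genes were not summarised alone. The list had 42 genes with a measured window, and 172 windows in all, of which 5 were called higher and 3 lower, or 4.65% against 0.0867% of all windows. Its median difference was 0.14 points, near 0.05 points over all windows, and 54.7% of its windows were above 0 against 53.3%. By gene, 21 medians were above 0 and 21 below. The median derived SE of its windows was 1.45 points against 0.576 over all windows, so this list held less precise windows than the table as a whole. By nearest start, no further gene of the list had a window with q at or below 0.05. A window centred inside both Airn and Gm17592 was assigned to Gm17592 and so not counted in the list. It was 9.64 points higher in YAP KD at T0 (q = 0.0219) and at -5.80 points at T4 (q = 0.29). Windows at an unadjusted p under 0.05 were 28 in this list (16.3%, against 10.01% of all windows), 17 higher and 11 lower.

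The other called genes of the lists were Tet3, Nuak2 and Lrp5, each the only called gene of its list. They are shown because they were called. Tet3, an enzyme that oxidises 5-methylcytosine, had 2 overlapping called windows in a coding exon on chromosome 6, of which the first ran from 83318126 to 83318375, 11646 bp past the nearest start. Nuak2, a kinase gene known as a YAP target, had its window on chromosome 1 from 134224251 to 134224500, in a coding exon 202 bp past the nearest start. Lrp5, a Wnt co-receptor gene, had its window on chromosome 19 from 3672501 to 3672750, in an intron 13939 bp past the nearest start. Capitals again mark CpGs on the mm9 plus strand.
Tet3: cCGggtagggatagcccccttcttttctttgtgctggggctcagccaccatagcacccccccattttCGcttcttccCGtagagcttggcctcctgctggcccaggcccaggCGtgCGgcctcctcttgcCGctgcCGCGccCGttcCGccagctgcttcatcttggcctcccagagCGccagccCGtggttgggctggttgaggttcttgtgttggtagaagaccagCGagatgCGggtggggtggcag
Nuak2: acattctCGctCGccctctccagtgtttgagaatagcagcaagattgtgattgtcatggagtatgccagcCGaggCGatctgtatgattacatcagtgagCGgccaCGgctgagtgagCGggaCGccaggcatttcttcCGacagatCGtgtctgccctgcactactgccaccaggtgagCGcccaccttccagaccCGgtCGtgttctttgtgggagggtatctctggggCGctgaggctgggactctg
Lrp5: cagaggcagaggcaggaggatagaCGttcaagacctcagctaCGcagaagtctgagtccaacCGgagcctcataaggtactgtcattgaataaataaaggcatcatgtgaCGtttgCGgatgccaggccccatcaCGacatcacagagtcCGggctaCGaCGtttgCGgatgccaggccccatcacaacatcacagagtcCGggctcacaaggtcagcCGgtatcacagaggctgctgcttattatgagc

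The first Tet3 window was 10.9 points higher in YAP KD (derived SE 2.78, q = 0.0316) and the second 10.7 points higher (q = 0.0438). No other of the 24 measured genes of the DNA methylation machinery was called. The windows nearest the starts of Dnmt1, Dnmt3a, Dnmt3l and Uhrf1 were at 0.01, -0.34, 0.24 and -0.30 points, with q from 0.815 to 0.944, and that of Tet2 was at 0.64 points (q = 0.717). The 89 windows of this list had a median of 0.01 points, with 2 called higher and 0 lower (2.25% called, against 0.0867% of all windows). The 2 called windows overlap. Dnmt3b and Tet1 had no window.

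The Nuak2 window was 11.6 points higher in YAP KD (derived SE 3.003, q = 0.0366), and the overlapping window before it was at 10.5 points but did not pass (q = 0.16). It was the only call among 143 windows at 32 measured genes of the Hippo pathway and YAP targets (0.699%, against 0.0867% of all windows). A single call in a list of this size does not set the list apart. The median of these windows was 0.01 points, and 16 gene medians lay above and 16 below 0. At the window nearest the start of Yap1, which encodes the targeted protein, the difference was -0.34 points (q = 0.846). Its paralog Wwtr1 (TAZ) was at -0.46 points (q = 0.718). The TEAD genes, the DNA-binding partners of YAP, were at 0.51 (Tead1), 0.04 (Tead2), 0.28 (Tead3) and -0.46 points (Tead4), with q from 0.786 to 0.939. These values are methylation of the genes and say nothing of their RNA.

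The Lrp5 window was 12.2 points higher (derived SE 2.81, q = 0.0108). It was the only call among 281 windows at 59 Wnt pathway genes (0.356%, against 0.0867% of all windows), whose median was 0.06 points. Lists of lineage and pluripotency genes had no call by the methylKit q-value. With 0.0867% of all windows called, 0 calls in lists of this size do not set them apart. The naive pluripotency list (24 genes, 148 windows) had 0 calls, a median of 0.03 points and 16 windows at an unadjusted p under 0.05 (10.8%, against 10.01% of all windows). Within it the window nearest the start of Sox2 was at 0.23 points (q = 0.857), and Nanog, Pou5f1 and Lin28a had no window. The neural list (41 genes, 385 windows) had 0 calls, 48 windows at an unadjusted p under 0.05 (12.5%) and a single window with q at or below 0.05, in a coding exon of the LIM homeobox gene Lhx5 (5.24 points, q = 0.0332). The formative epiblast, mesoderm and endoderm, trophoblast and Hox lists had 0 calls in 85, 192, 91 and 240 windows, of which 15, 10, 9 and 25 had an unadjusted p under 0.05 (17.6%, 5.21%, 9.89% and 10.4%, against 10.01% of all windows). Their medians were -0.16, 0.09, 0.04 and 0.02 points. The lists of cadherins, ribosomal protein genes, receptor genes and 2-cell genes had 0 calls in 116, 228, 57 and 14 windows, of which 11, 25, 11 and 3 had an unadjusted p under 0.05 (9.48%, 10.96%, 19.3% and 21.4%). Below 10 points, q was at or below 0.05 at the ribosomal protein gene Rpl35a (-9.70 points, q = 0.0226) and near the olfactory receptor gene Olfr878 (4.12 points, q = 0.0138).

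Germline genes, many of which are silenced by promoter methylation outside the germ line, stood on the higher side, with 0 windows called against 0.0867% of all windows. Of 65 windows at 17 genes, 46 were above 0 (70.8%), against 53.3% of all windows, and the median difference was 0.73 points against 0.05. By gene, 14 medians were above 0 and 3 below. An unadjusted p under 0.05 was found in 12 windows of the list (18.5%, against 10.01% of all windows), and all 12 were higher in YAP KD, where 2919 of the 4734 such windows of the whole table were. None of the 12 had q at or below 0.05. The largest difference was 9.59 points at Mael, a gene of the piRNA pathway, with q = 0.146. The derived SE of these windows had a median of 1.74 points. In the whole table, windows with a derived SE of 1 to 2 points had a median difference of 0.31 points with 57.1% above 0, and those of 2 to 3 points 0.81 points with 59.2%. The list's median of 0.73 points lay between the medians of these classes, while its share above 0 (70.8%) was larger than either of theirs. Whether precision accounts for the list's values was not tested. At T4 the list's median difference was 0.02 points, with 50% above 0.

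Most of the called regions lay away from gene starts. Of the 34 regions, 9 were centred within 1 kb of an annotated start (26.5%), against 72.8% of all windows, and 13 were more than 10 kb away (38.2% against 10.2%). By window, 13 of 34423 within 1 kb were called, 13 of 8047 at 1 to 10 kb and 14 of 4470 at 10 to 100 kb. These distances went together with precision: the median derived SE was 0.503 points within 1 kb and 1.25 points at 10 to 100 kb. Windows with a derived SE of up to 1 point could hold no call, since their differences ran only from -4.06 to 4.95 points. By q alone, 20 windows with a derived SE of up to 0.5 points and 43 of 0.5 to 1 point were at or below 0.05. The regions had a median of 12 CpGs, against 16 for all windows, and 56.4% GC against 59.2%. By position 14 regions were centred in introns (41.2%, against 30.9% of all windows), 10 in coding exons (29.4% against 19.8%), 9 between genes (26.5% against 28.9%) and 1 in an untranslated exon (2.94% against 17.1%). None of the 9 windows called lower was intergenic. The calls lay on 16 chromosomes, and chromosomes 9, 10, 12, X, Y and M had none, against 0.0867% of all windows. Chromosomes X, Y and M held only 397, 6 and 47 windows. On X, 7 windows had q at or below 0.05 (1.76%, against 0.389% of all windows), all higher in YAP KD.

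Among the regions called higher outside the lists, the largest was an intron of 4930511I11Rik at 15.4 points (q = 0.000884). It was followed by an intron of Gm20388, far downstream of the start of Banp, at 14.1 points (q = 0.00496), an intergenic window near Gm16506 at 13.1 points (q = 0.0327) and a coding exon of Tbc1d1, a Rab GTPase-activating protein gene, at 12.9 points (q = 0.00168). Both windows of an intergenic pair just before the start of Cyp2r1, the vitamin D 25-hydroxylase gene, were higher, by 12.7 and 10.9 points (q = 0.00528 and 0.0322). A coding exon of the mitochondrial sulphur dioxygenase gene Ethe1 was at 12.6 points (q = 0.0451), an untranslated exon of the 14-3-3 gene Ywhag at 12.5 points (q = 0.00591) and an intron of Rnf220 at 12.1 points (q = 0.00144). The sperm calcium channel gene Catsperg1 (11.99 points, q = 0.031), the synaptic gene Amph (11.3 points, q = 0.0215), the histone methyltransferase gene Wbp7 (11.3 points, q = 0.0366), D030068K23Rik (10.9 points, q = 0.0181) and Gm10237 (12.3 points, q = 0.00876) had intronic or exonic calls. Intergenic calls had their nearest starts at Gm16506, Gm9873, Gm13506, Gm15407, Irf2bp2, Gm4766, Chd1l and Apol7a, with 10.5 to 13.1 points. The 2 overlapping Chd1l windows had the same difference, p-value and q-value in the table. The Gm16506 window is partly repeated in the genome, with a median of 2 copies of its 31-mers, and reads from such copies can be assigned to the wrong one.

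The 5 regions called lower besides Mcts2 lay in gene bodies. They were an intron of Fam189a2 (-15.0 points, q = 0.0457), a coding exon of Elfn1, a synaptic adhesion gene (-13.2 points, q = 0.0181), and a coding exon of the clustered protocadherin gene Pcdha11 on chromosome 18 (-13.2 points, q = 0.0311). The others were a coding exon shared by 4931440F15Rik and Eml6 (-11.9 points, q = 0.0327, 2 copies) and a coding exon of Zbtb8a (-10.3 points, q = 0.0413). Of the overlapping or near windows of Pcdha11, 1 was at -4.39 points and 2 were at 0.24 and 1.71 points, none passing.

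**Figure D2:**
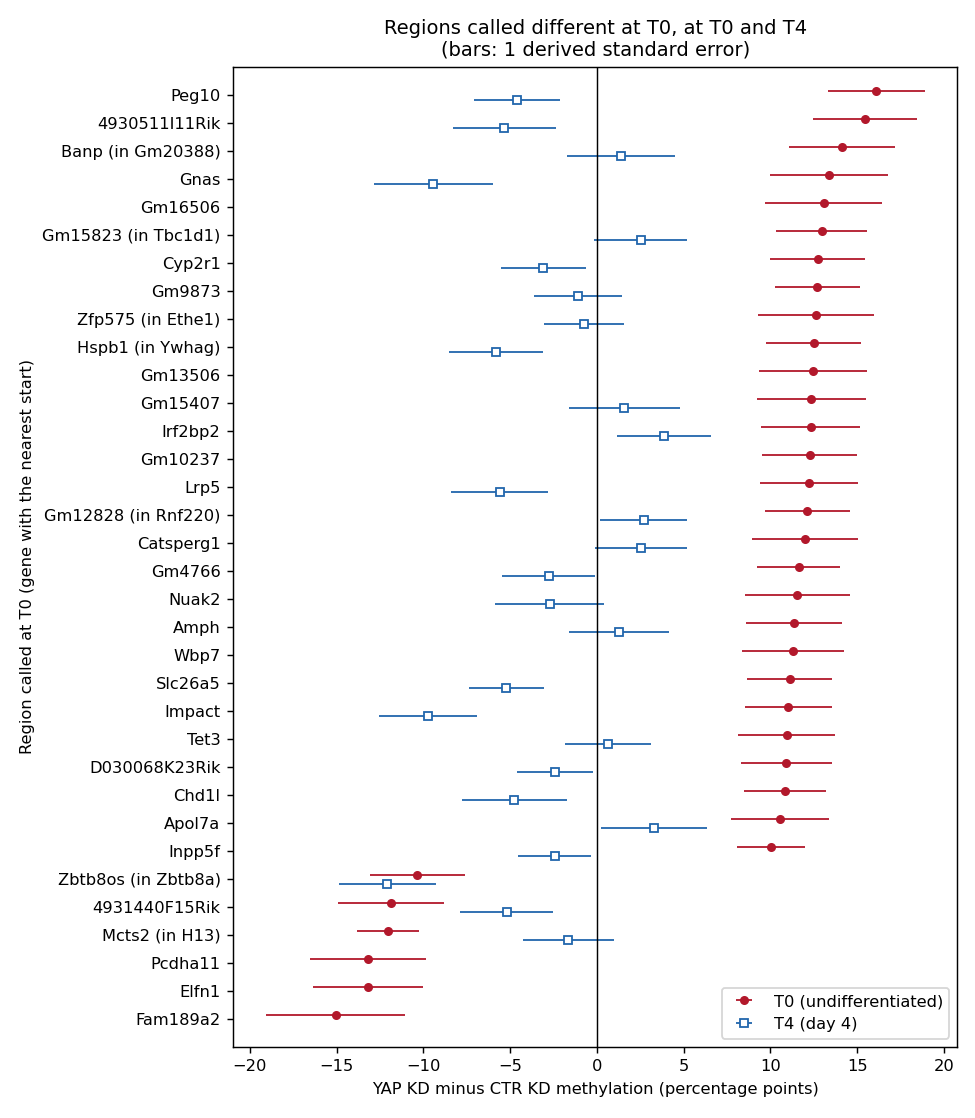
YAP KD minus CTR KD methylation (percentage points, x axis) at T0 (filled circles) and at T4 (open squares) for the 34 regions called at T0 (y axis, named by the gene with the nearest start and, in brackets, the gene that holds the window), with bars of 1 derived SE. Each region is drawn by its window with the largest T0 difference, and the T0 values were selected by the call and lie beyond 10 points on either side. That window had no T4 value in 7 regions. Of the 24 higher regions where it had a T4 value, 15 were below 0 at T4.

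The 2 hexamers searched were TGCCGC, bound by ZFP57, and GGAATG, the core of the TEAD site, on both strands. In the called windows 0 matches overlapped each other. At least 1 TGCCGC was present in 17.6% of the called regions, by the window with the largest difference, against 16.8% of all windows of this length, and GGAATG in 8.82% against 10.03%. Among the windows shown above, TGCCGC occurred 3 times at Mcts2, 3 times at Inpp5f, 2 times at Tet3 and 1 time at Gnas, and 0 times at Peg10, Nuak2 and Lrp5. A match is a description of the letters only.

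Next, the cells with an earlier knockdown were compared at T4, in samples the T0 table did not use. Each region was taken by its window with the largest T0 difference, and 27 of the 34 were listed at T4. Of the 24 regions higher at T0, 9 were above 0 at T4 and 15 below, with a median of -2.42 points, while 43.8% of all windows listed at both times were above 0 at T4. At T4 1.36% of these windows had q at or below 0.05, and 2 of the 27 regions did. Impact was the region whose T4 difference passed in the opposite direction, at -9.75 points (q = 0.0433), and its other called window was at -10.9 points (q = 0.00373). The coding exon of Zbtb8a passed in the same direction, at -10.3 points at T0 and -12.1 points at T4 (q = 0.00371). The 3 lower regions whose window with the largest difference had a T4 value were also lower at T4. At Elfn1 that window had none, but the other called window was at -6.38 points (q = 0.412).

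At T4 the Peg10 window was at -4.62 points (q = 0.443), Gnas at -9.42 (q = 0.164), Inpp5f at -2.44 (q = 0.687) and Mcts2 at -1.65 points (q = 0.829), none passing. Tet3 was at 0.66, Nuak2 at -2.72 and Lrp5 at -5.60 points (q = 0.897, 0.766 and 0.397). Of these 7 regions, by the windows shown, 6 had a T4 difference below 0, among them Mcts2, which was already below 0 at T0. Of all windows listed at both times, 43.8% were above 0 at T4. The second called Tet3 window was at -1.93 points at T4 (q = 0.785).

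The differentiation tables share the T0 samples with this comparison, and their values for the same windows follow from the selected T0 differences and the T4 differences, so they are given side by side as a description. From T0 to T4 the Peg10 window changed by 7.12 points in CTR KD and by -13.6 points in YAP KD, and the Gnas window by 13.1 and -9.69 points. The Ywhag window changed by 17.6 points in CTR KD and by -0.75 points in YAP KD. At Slc26a5, which encodes prestin, the motor protein of outer hair cells, the changes were -17.4 points in CTR KD and -33.7 points in YAP KD. The window lay in an intron on chromosome 5 from 21352751 to 21353000, and it is shown, with CpGs in capitals, because these losses set a floor on its level.
Slc26a5: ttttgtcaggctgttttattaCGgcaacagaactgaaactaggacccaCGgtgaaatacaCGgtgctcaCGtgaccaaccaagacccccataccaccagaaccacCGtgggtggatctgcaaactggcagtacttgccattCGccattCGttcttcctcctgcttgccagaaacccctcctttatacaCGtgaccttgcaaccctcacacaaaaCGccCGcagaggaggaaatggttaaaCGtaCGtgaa

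A loss of 33.7 points requires a YAP KD level of at least 33.7% at T0, and with the difference of 11.1 points (q = 0.00595) a CTR KD level of at least 22.6%. By the same reasoning the Catsperg1, Gm15407 and Ethe1 windows were methylated at no less than 25.8%, 25.5% and 23.6% in YAP KD at T0. The levels themselves were not in the tables.

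Over the whole table the difference between YAP KD and CTR KD was small. The median T0 difference was 0.05 points, and 53.3% of windows were above 0. More windows were over 2 points higher (6.75%) than over 2 points lower (3.61%), and 684 were over 5 points higher and 269 over 5 points lower. At an unadjusted p under 0.05 there were 4734 windows, 2919 higher and 1815 lower. The excess was larger in the less precise windows. In windows with a derived SE of up to 0.5 points the median was 0.01 points, in those of 1 to 2 points 0.31 points, in those of 2 to 3 points 0.81 points and in those over 3 points 1.24 points. The derived SE grows with a methylation level away from 0 or 100% and with lower depth, neither of which is given. At T4 the medians at these same windows were -0.04, -0.42, -1.06 and -1.36 points, below 0 in each class.

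**Figure D3:**
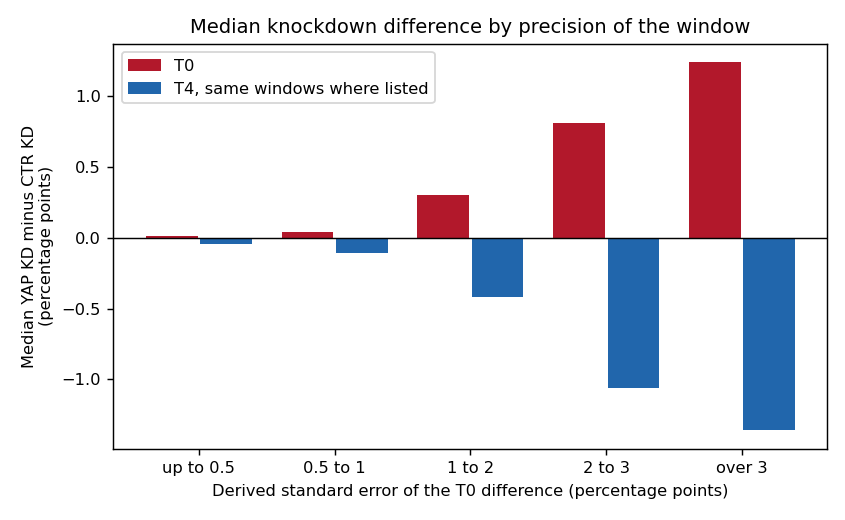
Median YAP KD minus CTR KD methylation (percentage points, y axis) of windows grouped by the derived SE of their T0 difference (x axis, percentage points), at T0 and, for the windows listed there, at T4. Medians rose with the derived SE at T0, to 1.24 points, and fell at T4, to -1.36 points.

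With q at or below 0.05 and no minimum difference, 184 windows passed (0.389%), 147 higher and 37 lower. Of these, 143 had at most 10 points. Among them the 5 smallest q-values were led by a window of a repeated cluster on chromosome 8 near Gm15319, with 2.76 points (derived SE 0.259, q = 8.66e-22) and a median of 7 copies of its 31-mers. The others were Gm18201 (9.36 points, q = 4.20e-05, 8 copies), a coding exon of the histone gene Hist1h2be near Hist1h4d (-2.05 points, q = 4.45e-05, 12 copies), Gm12957 (6.51 points, q = 6.23e-05) and an intron of Actn1 (6.57 points, q = 0.000356). At the first 3 of these, reads from other copies may have been placed in the window. Of all windows with q at or below 0.05, 83.2% were single copy, against 95.2% of all windows.

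Of the 184 windows, 168 were listed at T4. The 139 higher at T0 were below 0 at T4 in 93 cases, with a median of -0.83 points, and the 29 lower were below 0 in 20 cases, with a median of -0.62 points. The T4 sign was thus mostly negative whichever way the T0 difference went. In 17 windows q was at or below 0.05 at both times, and in 16 of them the signs were opposite, all 16 being higher at T0 and lower at T4. The 17 include 4 windows at Mid1 and Gm15247, 2 at Impact and 2 at 1700016D06Rik, so they are fewer loci. Of the 525 windows listed at both times with q at or below 0.05 at T4, 455 were below 0 at T4 and 305 (58.1%) had the opposite sign at T0. The share with opposite signs was 50.3% over all windows listed at both times. The exception among the 17 was the Zbtb8a exon. Across all 38567 windows listed at both times the correlation of the T0 with the T4 difference was Pearson's r = -0.04 and Spearman's rho = -0.01. This is a description, since the windows overlap and share libraries.

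**Figure D4:**
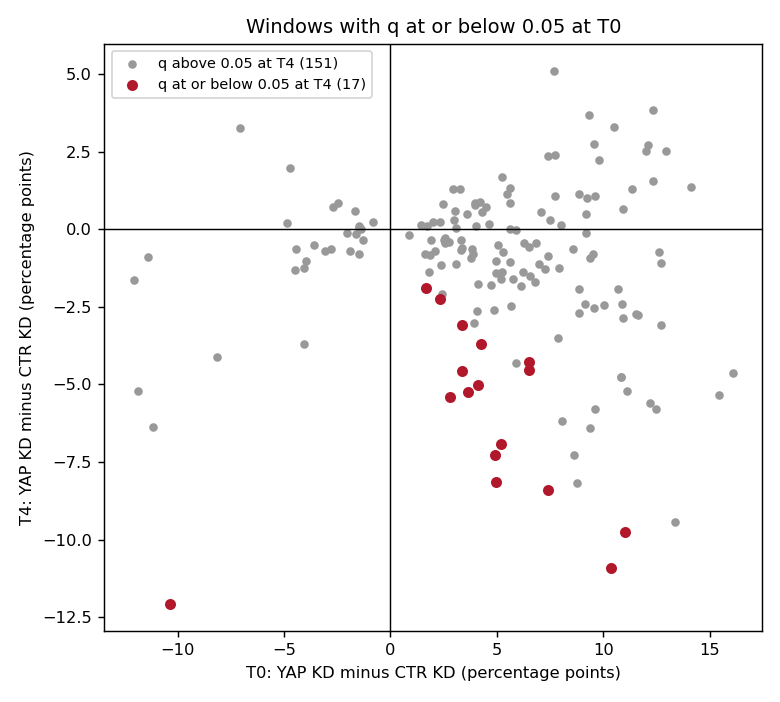
YAP KD minus CTR KD methylation at T4 (y axis) against T0 (x axis), both in percentage points, for the 168 windows with q at or below 0.05 at T0 that were listed at T4. Of the 17 windows with q at or below 0.05 at both times, 16 lie in the lower right, higher at T0 and lower at T4.

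The knockdown difference at T4 was then tested against that at T0 in each window, by a z test on the derived SEs with Benjamini-Hochberg adjustment over the 38567 windows. The difference changed in 484 windows (1.25%), 416 of them to lower values at T4, and 396 were above 0 at T0 and below 0 at T4. Of the 484, 85 had q at or below 0.05 at T0 and 221 at T4. The smallest adjusted p was at the Gm15319 window, from 2.76 to -0.41 points (2.98e-14). A window in an untranslated exon of Mid1, an X-linked ubiquitin ligase gene, went from 2.82 points (q = 0.0107) to -5.39 points (q = 3.69e-11), with an adjusted p of 9.76e-14. The Mid1 window is assigned to the nearest start, that of Gm15247. The window near Ly6c2 came next, from 0.19 to -2.82 points, with an adjusted p of 1.47e-11. A coding exon of Mmgt2 went from 7.07 to -20.5 points, with an adjusted p of 2.33e-11. An intron of Pcdha11 went from 5.47 to -13.8 points, with an adjusted p of 8.07e-11. At Ly6c2, Mmgt2 and Pcdha11 the T0 difference did not pass (q = 0.81, 0.176 and 0.16), whereas at T4 q was 6.86e-17, 8.52e-12 and 1.59e-11. The Ly6c2 window had a median of 2 copies of its 31-mers. With the derived SEs doubled, none of the 484 passed, and 235 windows had an unadjusted p under 0.05.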

How the data were processed

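DNA methylation was measured by capture bisulphite sequencing (SureSelectXT Methyl-Seq) in 8 samples, 2 for each siRNA and time. By the study's methods and the submitters' processing notes, the authors trimmed reads with Trim Galore, mapped them to mm9 with Bismark and Bowtie2, left out positions under 6 reads and compared groups with methylKit in windows of 250 bp every 125 bp. Whether overdispersion was modelled is not given in the sources used here. The deposited tables hold a methylation difference in percentage points and a p-value and q-value for each window, with no value per sample, and 0 other columns of single samples were present. The signs of the tables were checked against each other in the 37980 windows listed in all 4. With knockdown differences read as YAP KD minus CTR KD and differentiation differences as T4 minus T0, 93.4% closed within 0.5 points. With the sign of the knockdown tables alone reversed, 22.2% closed. Reversing all 4 tables together would close equally well, so the check fixes their signs only relative to each other.

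Windows were annotated by their centre with GENCODE M1 on NCBIM37 (the mm9 assembly), and copies are the median genomic count of a window's 31-mers. Scripts used Python 3.11.15, numpy 2.4.6, scipy 1.17.1, pandas 2.3.3 and matplotlib 3.10.9. Windows with a difference of exactly 0 have no derived SE and were given p = 1 in the z test, which was tested on simulated data. A gene's windows are those whose nearest start is its own. Named genes were every called region, the genes of 15 gene lists with a call and up to 4 more with the smallest q at or below 0.05, 17 regulators of YAP, methylation and pluripotency by the window nearest their start, and the 5 smallest p-values of the T4 minus T0 test and of windows under 10 points. Mael, Impa2, Gm13875, 1700016D06Rik and the level bounds were picked out after their values were seen. The members and lists were chosen with earlier results of these data known. Alternatives covered thresholds, the adjustment, doubled errors, overlap, sex chromosomes, repeated sequence and the overlap with the T4 table.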

Additional observations from a re-analysis of the deposited data

Results flagged for a closer look

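Of the 34 regions called at T0, 27 had a T4 value for their window with the largest T0 difference, and 24 of these were higher at T0. In 13 of the 27 the knockdown difference at T4 differed from that at T0 by the z test (adjusted p at or below 0.05). The share over all windows listed at both times was 1.25%. All 13 regions were higher at T0, and each change was toward lower values at T4. The changes, T4 minus T0, were -22.8 points at Gnas, -20.8 points at Impact, -20.8 points at 4930511I11Rik and -20.7 points at Peg10. They were -18.3 points in the Ywhag exon (nearest start Hspb1), -17.8 points at Lrp5 and -16.3 points at Slc26a5. Before the start of Cyp2r1 the change was -15.8 points, near Chd1l -15.6 points, near Gm4766 -14.4 points and near Gm9873 -13.8 points. At D030068K23Rik it was -13.3 points and at Inpp5f -12.5 points. The T0 values were selected for their size, which by itself makes a return toward 0 more likely. The T4 values took no part in that selection. Whether T0 and T4 samples came from the same transfections is not given, and the z test treats them as independent. Of these 13 regions, Impact had a T4 difference with q at or below 0.05. With derived SEs doubled none of the 13 changes passed.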

How the results depend on the processing

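The T0 count of 41 (32 higher, 9 lower) stayed within 1.5 times under a Benjamini-Hochberg adjustment recomputed from the deposited p-values (40), merging into regions (34), autosomes only (41) and single-copy windows only (39), and in windows also listed at T4 (33), where the lower calls fell to 5. It became 19 (16 and 3) at q 0.01, 184 (147 and 37) with no minimum difference, 105 (92 and 13) with a minimum of 5 points, 0 (0 and 0) with a minimum of 20 points, and 20 (15 and 5) in windows that do not overlap. With derived SEs doubled the count was 0 (0 and 0), while 30 of the 41 had an unadjusted p under 0.05. The 484 windows whose difference changed between T4 and T0 became 197 at an adjusted p of 0.01, 0 with SEs doubled, 496 from the differentiation tables, 243 in windows that do not overlap and 394 in single-copy windows. In windows with a derived SE over 1 point, the median T0 difference moved from 0.05 to 0.43 points. The share above 0 moved from 53.3% to 57.8%. The median and share were 0.051 points and 53.3% in windows that do not overlap. They were 0.050 points and 53.3% on autosomes, and 0.047 points and 53.1% in single-copy windows. No paired analysis was possible because the tables hold no value per sample, and for the same reason no replicate could be left out. Depth and methylation levels are unknown, so a window without a call may differ by an amount these libraries could not resolve.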
